A study of Mus musculus with 12 samples.

Results

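The mitosis and cytokinesis genes described here are 47 named genes whose products build the spindle, attach and separate the chromosomes and divide the cell body. They were given as a list of symbols and were matched to the deposited table of 15721 genes, where all 47 were found. The table holds 12 strand-specific mRNA sequencing libraries of peritoneal macrophages isolated by FACS from C57BL/6 mice, with 3 libraries of each of 4 genotypes. WT mice were compared with Samhd1 KO mice, labelled as knockouts of SAMHD1, an enzyme that breaks down deoxynucleotides, and with mice labelled as double knockouts of SAMHD1 and either Cardif, also called MAVS and needed to signal from cytosolic RNA sensors (Samhd1 Cardif dKO), or STING, which relays signals from the DNA sensor cGAS (Samhd1 Sting dKO). All 3 mutant groups are labelled as Samhd1 knockouts. The labels give no treatment, do not say how the alleles were made, and do not say whether each library came from a separate mouse, so a p-value here measures the spread between these libraries, which may be partly technical. The labelled age, given without a unit, was 16 in every WT library, and in replicates 1, 2 and 3 it was 19, 18 and 16 for Samhd1 KO, 18, 18 and 16 for Samhd1 Cardif dKO and 24, 16 and 18 for Samhd1 Sting dKO. All mice were female except that of Samhd1 Cardif dKO replicate 1.

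Most genes of mitosis are transcribed in waves, so that their RNA accumulates in G2 and M phase and is low in cells that are not dividing. The cyclin-dependent kinase CDK1 drives entry into mitosis, the spindle checkpoint holds the cell until every kinetochore is attached, and the anaphase-promoting complex then marks securin and the cyclins for destruction. Resident peritoneal macrophages are known to maintain themselves in part by division in place. In bulk RNA such as this, a smaller number of dividing cells and less RNA per dividing cell cannot be told apart.

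Promoter windows of these genes, 250 bases before to 50 bases after the annotated start, were taken from RefSeq on GRCm38.p6. A window was found for 40 of the 47 genes. The letters searched were TTTGAA, the core of the cell cycle genes homology region through which the DREAM and B-MYB-FOXM1 complexes act, and CCAAT, the letters bound by NF-Y, each on both strands. A copy of one motif can share at most 1 base with a copy of the other. TTTGAA was present in 31 of the 40 genes (77.5%), against 20.2% of the 27025 genes with a window in the RefSeq table. CCAAT was present in 32 (80%, against 41.1%), at least 2 copies of CCAAT in 22 (55%, against 13.3%), and both motifs in 27 (67.5%, against 7.97%). Such a match is a description of the letters and not a bound site. The 5 windows printed are those of Mki67 and of the 4 most abundant further genes described in every library whose window held both motifs, so that genes that varied widely between libraries (Mki67, Top2a, Kif11) can be read beside genes that varied little (Espl1, Racgap1). Capitals mark the matches on either strand, and each window is written 5′ to 3′ on the strand of the gene.
Mki67 (chr7:135716330-135716629, minus strand): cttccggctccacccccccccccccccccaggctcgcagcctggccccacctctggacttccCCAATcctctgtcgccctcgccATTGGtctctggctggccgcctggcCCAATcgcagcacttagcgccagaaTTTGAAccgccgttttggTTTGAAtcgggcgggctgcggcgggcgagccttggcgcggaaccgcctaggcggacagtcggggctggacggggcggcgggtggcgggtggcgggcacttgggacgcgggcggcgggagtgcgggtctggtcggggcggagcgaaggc
Espl1 (chr15:102296043-102296342, plus strand): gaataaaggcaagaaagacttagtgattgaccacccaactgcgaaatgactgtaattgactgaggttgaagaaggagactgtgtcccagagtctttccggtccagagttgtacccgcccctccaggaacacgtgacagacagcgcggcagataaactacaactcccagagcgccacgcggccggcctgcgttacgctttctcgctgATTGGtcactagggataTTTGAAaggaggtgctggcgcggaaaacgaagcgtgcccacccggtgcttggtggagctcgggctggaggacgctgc
Top2a (chr11:99024140-99024439, minus strand): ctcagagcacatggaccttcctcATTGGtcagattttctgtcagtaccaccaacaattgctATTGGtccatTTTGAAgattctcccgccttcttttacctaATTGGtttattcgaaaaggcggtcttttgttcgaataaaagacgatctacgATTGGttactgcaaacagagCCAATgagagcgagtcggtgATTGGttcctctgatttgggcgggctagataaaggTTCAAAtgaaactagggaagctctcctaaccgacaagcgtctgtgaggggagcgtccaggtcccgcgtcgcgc
Racgap1 (chr15:99651607-99651906, minus strand): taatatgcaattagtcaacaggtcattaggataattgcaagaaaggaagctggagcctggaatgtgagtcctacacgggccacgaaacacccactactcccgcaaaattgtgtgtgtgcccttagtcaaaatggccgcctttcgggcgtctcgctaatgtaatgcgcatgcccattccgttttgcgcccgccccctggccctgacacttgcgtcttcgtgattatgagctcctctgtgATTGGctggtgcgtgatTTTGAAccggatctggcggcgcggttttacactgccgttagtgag
Kif11 (chr19:37376132-37376431, plus strand): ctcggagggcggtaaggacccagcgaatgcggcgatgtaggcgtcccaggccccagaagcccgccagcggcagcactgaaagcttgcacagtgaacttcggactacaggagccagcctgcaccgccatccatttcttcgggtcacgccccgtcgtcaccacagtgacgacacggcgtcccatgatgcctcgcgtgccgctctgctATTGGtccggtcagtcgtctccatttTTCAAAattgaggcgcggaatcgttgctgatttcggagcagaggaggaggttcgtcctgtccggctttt
In the Mki67 window TTTGAA began 116 and 98 bases before the start, downstream of 3 copies of CCAAT or its reverse complement. In Racgap1 TTTGAA began 6 bases after the start. Top2a held 6 copies of CCAAT or its reverse complement and 2 of TTTGAA or its reverse complement. In Espl1 TTTGAA began 27 bases and a reversed CCAAT 44 bases before the start, and in Kif11 the distances were 19 and 45 bases, both reversed. By the annotated starts, Espl1 and Kif11 thus held the same pair of motifs at like distances. The level of Espl1 varied least between libraries and that of Kif11 widely. Unlike those of the other windows printed, the last bases of the Kif11 window were not found in a transcript of the gene. The distances given for Kif11 therefore rest on a start that was not borne out by a transcript.

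Recovered depth ran from 18884021 to 32204657 reads per library. The libraries had the markers of large peritoneal macrophages at high and steady levels (mean log2 level of 14 genes between 15.16 and 15.39 in every library), with Gata6 between 3134 and 4414 normalized reads. Samhd1 itself was at 10113 to 11525 normalized reads in WT, 5555 to 7816 in Samhd1 KO and 2952 to 4563 in both double knockouts. Mavs was at 509 to 525 in Samhd1 Cardif dKO and 768 to 1008 elsewhere. Reads of Samhd1 and Mavs were thus lower in the libraries labelled as their knockouts but remained, and reads over a whole gene do not show whether its product was lost. Tmem173, which encodes STING, was at 538 to 577 in Samhd1 Sting dKO, 481 to 548 in WT, 696 to 768 in Samhd1 KO and 577 to 653 in Samhd1 Cardif dKO. In Samhd1 Sting dKO it was thus below Samhd1 KO without overlap but not below WT, so the gene-level reads do not check the Sting label. A normalized read here is a read divided by the size factor that the authors gave its library.

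The mitosis and cytokinesis genes varied together from library to library, and the libraries of 1 genotype were far apart. Together they took 0.0369% of the reads in Samhd1 Sting dKO replicate 3, the lowest share, and 0.279% in Samhd1 Cardif dKO replicate 1, the highest. Their mean level on the scale log2(normalized reads + 1), over the 46 genes that reached 10 normalized reads in 3 or more libraries, was 7.57, 8.61 and 6.14 in WT replicates 1, 2 and 3. The replicates of Samhd1 KO had 7.32, 9.18 and 9.33, those of Samhd1 Cardif dKO had 9.96, 7.64 and 8.71, and those of Samhd1 Sting dKO had 7.06, 6.64 and 5.77. The 3 Samhd1 Sting dKO libraries lay below all 6 Samhd1 KO and Samhd1 Cardif dKO libraries, and WT overlapped with every other group. The gene left out was Cks2, a small CDK-binding protein, at 2.47 to 14.5 normalized reads, which was not tested.

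The same libraries were highest or lowest for most of the genes. Samhd1 Cardif dKO replicate 1, the male mouse, was highest of all 12 libraries for 45 of the 47 genes. The exceptions were Cks2, highest in Samhd1 KO replicate 2, and Cenpa, highest in Samhd1 KO replicate 3. Samhd1 Sting dKO replicate 3 was lowest of the 12 for 33 genes and WT replicate 3 for 11. Within Samhd1 Cardif dKO replicate 1 was highest and replicate 2 lowest for all 47 genes. Within WT replicate 2 was highest for 47 and replicate 3 lowest for 45, and within Samhd1 KO replicate 1 was lowest for 47, while replicate 3 was highest for 27 and replicate 2 for 20. Because the genes share these libraries, 47 genes that point the same way are not 47 separate observations.

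**Figure D1:**
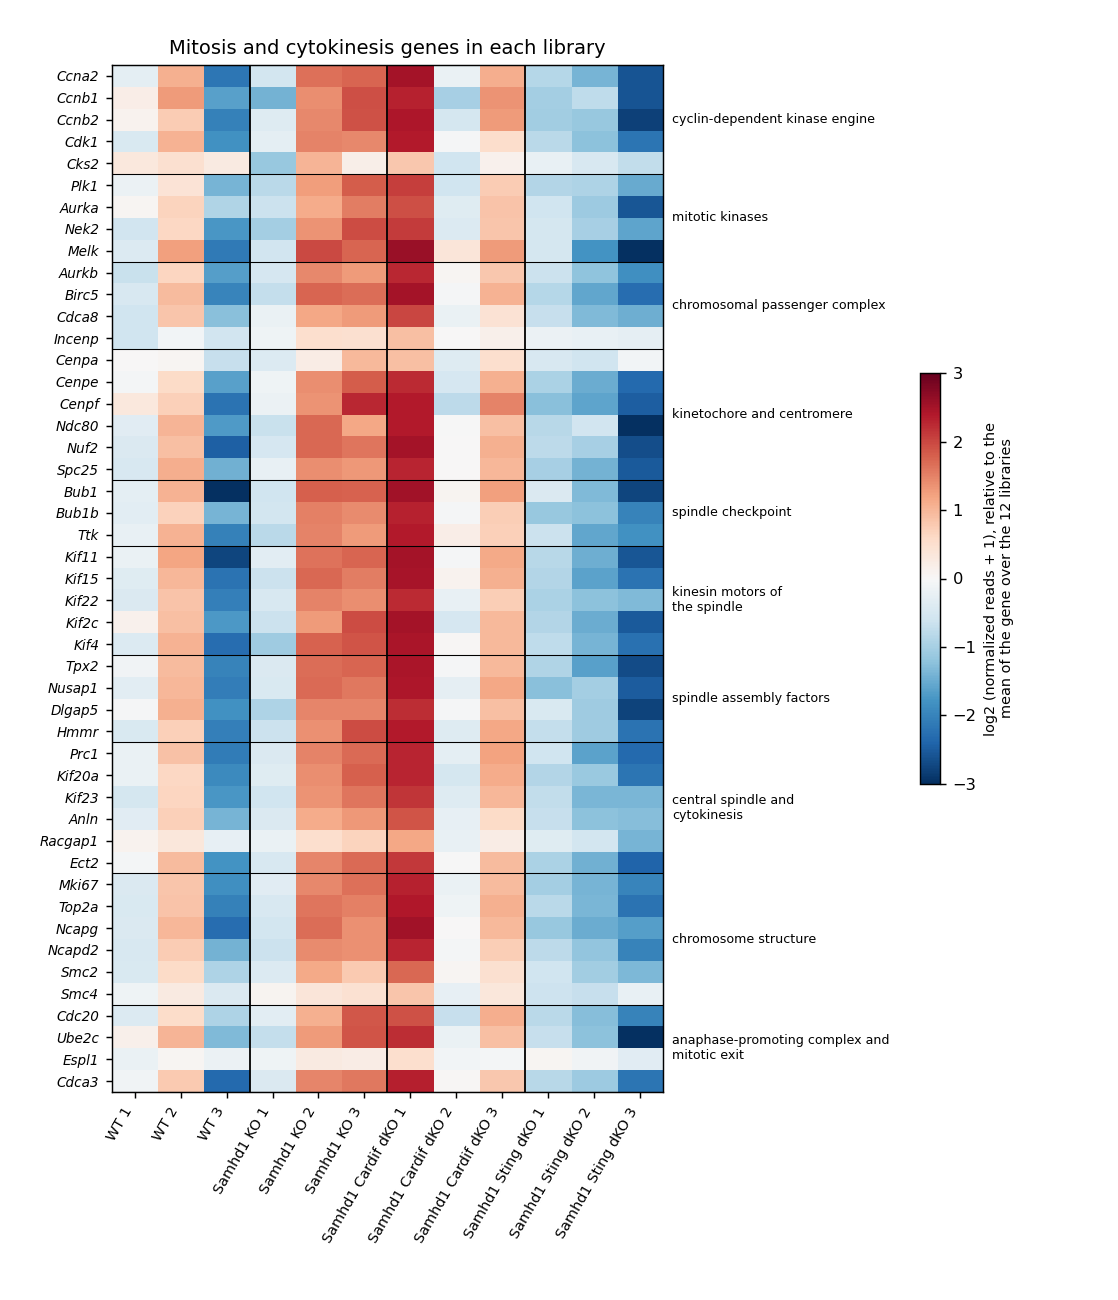
Level of each of the 47 genes (rows, grouped by role) in each of the 12 libraries (columns, grouped by genotype), as log2(normalized reads + 1) relative to the mean of the gene over the 12 libraries. Samhd1 Cardif dKO replicate 1 is the darkest red column and Samhd1 Sting dKO replicate 3 and WT replicate 3 are the darkest blue, while Espl1, Incenp, Smc4, Cenpa and Racgap1 stay pale.

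Mki67 encodes the Ki-67 protein that coats mitotic chromosomes and is the usual marker of cycling cells. It stood at 853, 2029.7 and 322 normalized reads in WT replicates 1, 2 and 3, at 908, 3146 and 3642 in Samhd1 KO, at 5694, 1005 and 2203 in Samhd1 Cardif dKO and at 565, 436 and 291 in Samhd1 Sting dKO. All 3 Samhd1 Sting dKO values lay below all Samhd1 KO and all Samhd1 Cardif dKO values, and among the WT libraries only replicate 3 was as low. Mki67 differed between Samhd1 Sting dKO and Samhd1 KO by a log2 change of -2.39 (SE 0.73, 95% interval -3.98 to -0.80, limma adjusted p = 0.0787), 5.24-fold lower in the former, which did not pass the threshold of 0.05. Against WT the log2 change was -0.99 in Samhd1 Sting dKO (SE 0.73, limma adjusted p = 0.464), 1.41 in Samhd1 KO (SE 0.73, 0.328) and 1.50 in Samhd1 Cardif dKO (SE 0.73, 0.373).

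Other chromosome structure genes followed Mki67, except Smc4. Top2a, the topoisomerase that untangles sister chromatids, stood at 929, 2291 and 308 normalized reads in WT, at 914, 3859.5 and 3605 in Samhd1 KO, at 6745, 1165 and 2676 in Samhd1 Cardif dKO and at 728, 489 and 272 in Samhd1 Sting dKO. All 3 Samhd1 Sting dKO libraries were below those of Samhd1 KO and Samhd1 Cardif dKO, and WT replicate 3 was among them. Smc4, a core subunit of condensin, stood at 1777, 2333 and 1423 in WT, at 2034, 2492 and 2647 in Samhd1 KO, at 3452, 1619 and 2426 in Samhd1 Cardif dKO and at 1260.0, 1198 and 1668 in Samhd1 Sting dKO. Smc4 in Samhd1 Sting dKO was below Samhd1 KO without overlap and met Samhd1 Cardif dKO at replicate 2 of the latter. Its highest value was 2.88 times its lowest, against 24.8 times for Top2a. The condensin subunits Ncapg, Ncapd2 and Smc2 had ratios of 28.8, 19.6 and 8.48.

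Among the genes of the cyclin-dependent kinase engine, Ccna2 (cyclin A2, needed in S phase and at mitotic entry) stood at 258, 667 and 69.7 normalized reads in WT, at 214, 999 and 1055 in Samhd1 KO, at 1776, 277 and 675 in Samhd1 Cardif dKO and at 174, 120.4 and 51.3 in Samhd1 Sting dKO. Ccnb2, a B-type cyclin that activates CDK1, stood at 202, 321 and 45.2 in WT, at 143, 509.9 and 714 in Samhd1 KO, at 1006, 130.4 and 459 in Samhd1 Cardif dKO and at 90.2, 84.4 and 26.2 in Samhd1 Sting dKO. For both cyclins Samhd1 Sting dKO lay below the other double knockout and Samhd1 KO without overlap, and WT replicate 3 lay between their lowest and middle libraries. The highest library was 34.6 times the lowest for Ccna2 and 38.3 times for Ccnb2. Ccnb1 (cyclin B1) had the same spread at a lower level, from 5.96 to 206, and Cdk1 ran from 38.2 to 919.

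Of the mitotic kinases, Plk1, which matures centrosomes and triggers mitotic entry, stood at 103, 155 and 43.7 normalized reads in WT, at 65.9, 282 and 416 in Samhd1 KO, at 499.8, 77.3 and 198 in Samhd1 Cardif dKO and at 62.7, 60.7 and 40.5 in Samhd1 Sting dKO. Melk, a kinase abundant in dividing cells, stood at 60.6, 191 and 17.8 in WT, at 53.6, 321 and 273 in Samhd1 KO, at 488, 104 and 198 in Samhd1 Cardif dKO and at 55.0, 22.5 and 4.77 in Samhd1 Sting dKO. The groups of Samhd1 KO and Samhd1 Sting dKO were separate for Plk1 by a narrow margin, and met for Melk, where Samhd1 KO replicate 1 was just under Samhd1 Sting dKO replicate 1. Melk had the widest ratio of highest to lowest library of all 47 genes, 102. Its estimate in Samhd1 Sting dKO against Samhd1 KO, a log2 change of -3.10, had an SE of 1.00 (limma adjusted p = 0.0919). Aurka, the spindle pole Aurora kinase, ran from 13.1 to 316 and Nek2, a centrosome kinase, from 17.0 to 255.

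In the chromosomal passenger complex, which corrects faulty attachments, the catalytic and scaffold subunits differed in spread. Aurkb, the kinase, stood at 176, 439 and 88.2 normalized reads in WT, at 199, 766 and 684 in Samhd1 KO, at 1353, 292 and 489.6 in Samhd1 Cardif dKO and at 178, 121 and 77.5 in Samhd1 Sting dKO. Incenp, the scaffold, stood at 1191, 1697 and 1209.5 in WT, at 1631, 2533 and 2494 in Samhd1 KO, at 3377, 1806 and 1981 in Samhd1 Cardif dKO and at 1589, 1528 and 1486 in Samhd1 Sting dKO. For both genes Samhd1 Sting dKO lay below Samhd1 KO and Samhd1 Cardif dKO without overlap, with WT overlapping it in both. Aurkb spanned 17.5 times from its lowest to its highest library, in Samhd1 Sting dKO replicate 3 and Samhd1 Cardif dKO replicate 1, and Incenp 2.83 times. Birc5 (survivin) and Cdca8 (borealin), the other subunits, spanned 27.9 and 11.1 times.

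The kinetochore genes held both a steady and several variable members. Cenpa, the histone variant that marks the centromere, stood at 381, 392 and 233 normalized reads in WT, at 284, 437 and 735 in Samhd1 KO, at 702, 286 and 531 in Samhd1 Cardif dKO and at 269, 247 and 358 in Samhd1 Sting dKO. Cenpf, a large kinetochore protein, stood at 218, 287 and 37.1 in WT, at 157, 448 and 841 in Samhd1 KO, at 918, 101 and 492 in Samhd1 Cardif dKO and at 73.7, 58.5 and 31.0 in Samhd1 Sting dKO. Cenpa overlapped between all groups, whereas Cenpf in Samhd1 Sting dKO was below every Samhd1 KO and Samhd1 Cardif dKO library. The outer kinetochore genes Ndc80, Nuf2 and Spc25 and the motor Cenpe spanned 46.5, 37.1, 30.1 and 24.0 times. Cenpe had the lowest adjusted p of the 46 genes for Samhd1 Sting dKO against Samhd1 KO, at 0.0583 (log2 change -2.61, SE 0.73, limma).

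Of the spindle checkpoint genes, Bub1b (BubR1, an inhibitor of the anaphase-promoting complex) stood at 245, 495 and 116 normalized reads in WT, at 207, 878 and 818 in Samhd1 KO, at 1521, 300.0 and 509 in Samhd1 Cardif dKO and at 139.6, 129 and 75.1 in Samhd1 Sting dKO. Bub1, the kinase that recruits it, stood at 102, 263 and 14.8 in WT, at 82.4, 438 and 430.0 in Samhd1 KO, at 725, 132 and 299 in Samhd1 Cardif dKO and at 92.4, 49.5 and 17.9 in Samhd1 Sting dKO. Bub1b was separate between Samhd1 Sting dKO and Samhd1 KO, and Bub1 was not, since Samhd1 KO replicate 1 was under Samhd1 Sting dKO replicate 1. The checkpoint kinase Ttk ran from 19.3 to 427.

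The kinesin motors were among the most variable genes. Kif11, which pushes the spindle poles apart, stood at 258, 671 and 43.0 normalized reads in WT, at 236, 919.7 and 992 in Samhd1 KO, at 1659, 287 and 651 in Samhd1 Cardif dKO and at 165, 106 and 48.9 in Samhd1 Sting dKO. Kif15, its partner on spindle microtubules, stood at 142, 363 and 38.5 in WT, at 117, 601 and 533 in Samhd1 KO, at 1015, 196 and 384 in Samhd1 Cardif dKO and at 99.0, 59.6 and 38.2 in Samhd1 Sting dKO. WT replicate 3 was the lowest of the 12 libraries for Kif11, and for both motors the Samhd1 Sting dKO libraries were all under those of Samhd1 KO. Kif22, Kif2c and Kif4 spanned 20.0, 34.9 and 27.6 times. Among the spindle assembly factors, Tpx2, the activator of Aurora A, stood at 223, 464 and 59.3 in WT, at 178, 774 and 819 in Samhd1 KO, at 1316, 238 and 479 in Samhd1 Cardif dKO and at 129, 77.6 and 37.0 in Samhd1 Sting dKO. Nusap1, a microtubule bundler, stood at 158, 398 and 46.7 in WT, at 145, 645 and 594 in Samhd1 KO, at 1078, 166 and 448 in Samhd1 Cardif dKO and at 82.5, 97.9 and 34.6 in Samhd1 Sting dKO. Neither overlapped between Samhd1 Sting dKO and the other SAMHD1-deficient groups. Dlgap5 and Hmmr, further spindle proteins, ran from 21.5 to 721 and from 25.0 to 629.

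In the central spindle and cytokinesis group, Racgap1, the GTPase-activating subunit of centralspindlin, stood at 1188, 1406 and 934 normalized reads in WT, at 971, 1567 and 1759 in Samhd1 KO, at 2487, 949 and 1300.3 in Samhd1 Cardif dKO and at 861, 764 and 421 in Samhd1 Sting dKO. Racgap1 was the only one of the 46 genes for which Samhd1 Sting dKO lay below WT without overlap, and it lay below all 9 other libraries, at a log2 change of -0.83 against WT (SE 0.35, limma adjusted p = 0.189) and -1.09 against Samhd1 KO (SE 0.35, limma adjusted p = 0.0952). Anln (anillin, a scaffold of the cleavage furrow) stood at 297, 622 and 143 in WT, at 280.2, 809 and 933 in Samhd1 KO, at 1387, 315 and 563 in Samhd1 Cardif dKO and at 232, 161 and 155 in Samhd1 Sting dKO, and only WT replicate 3 was below the Samhd1 Sting dKO libraries. Kif23, the motor that binds Racgap1, spanned 14.8 times, Prc1, the bundler of midzone microtubules, 24.7, Kif20a 22.7 and Ect2, the activator of RhoA at the furrow, 24.2.

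At mitotic exit, Ube2c, the E2 enzyme of the anaphase-promoting complex, stood at 153, 281 and 54.8 normalized reads in WT, at 84.1, 338 and 516 in Samhd1 KO, at 645, 121 and 262 in Samhd1 Cardif dKO and at 85.8, 58.5 and 13.1 in Samhd1 Sting dKO. Espl1, which encodes separase, the protease that cleaves cohesin, stood at 2296, 2745 and 2341 in WT, at 2414, 3167 and 3058 in Samhd1 KO, at 3736, 2492 and 2546 in Samhd1 Cardif dKO and at 2751, 2441 and 2087 in Samhd1 Sting dKO. Samhd1 KO replicate 1 was just under Samhd1 Sting dKO replicate 1 for Ube2c, and all groups overlapped for Espl1, whose highest library was 1.79 times its lowest. Cdc20, the activator of the complex, and Cdca3 spanned 15.5 and 26.4 times. Per kilobase of the length given in the deposited table, 3 genes with little spread were the most abundant, with mean levels over the 12 libraries of 581 normalized reads for Incenp, 403 for Espl1 and 403 for Smc4, against 174.5 for Mki67, 220.3 for Top2a and 16.6 for Ccnb1.

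**Figure D2:**
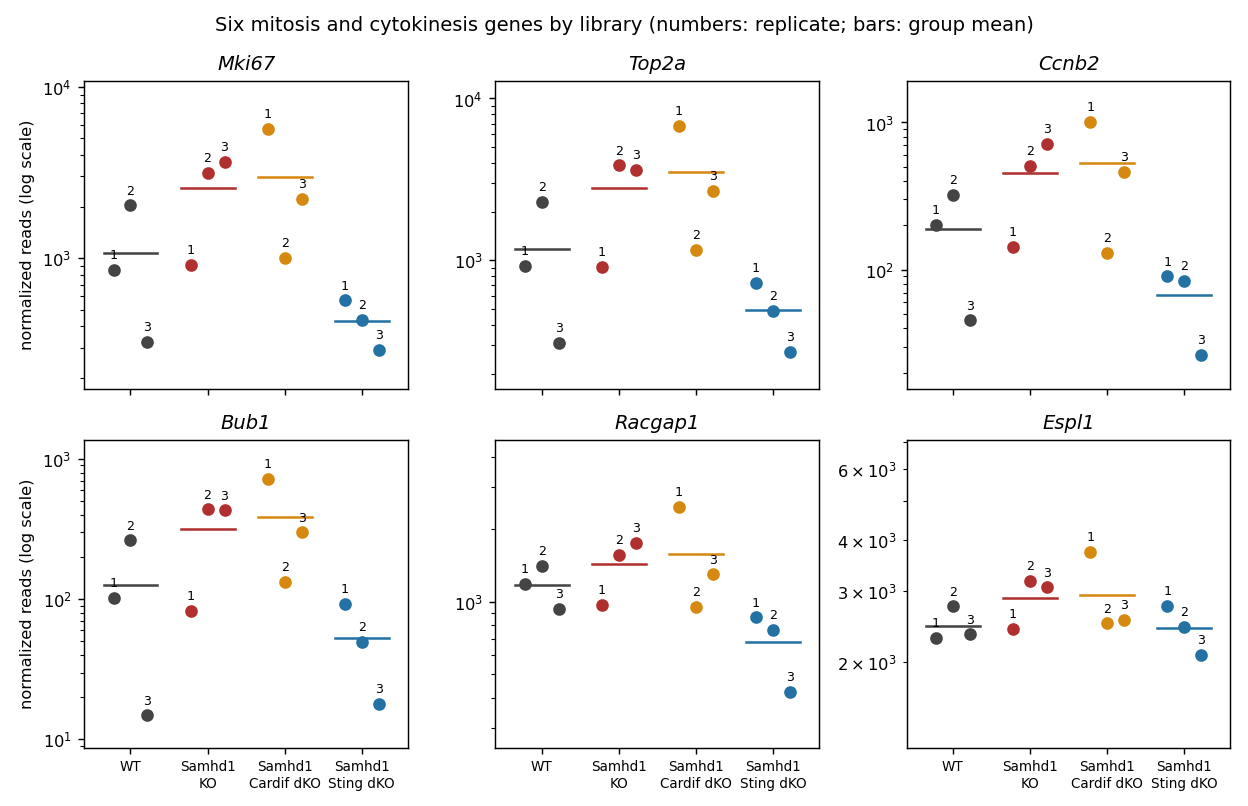
Normalized reads (log axis) of 6 genes in each library by genotype, with replicate numbers and a bar at the group mean. Samhd1 Cardif dKO replicate 1 is highest for all 6 genes, Samhd1 Sting dKO replicate 3 is lowest for all but Bub1, and Espl1 stays between 2087 and 3736.

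Spread between libraries of a group was measured as the SD of the log2 values around their group means, over all 4 groups. Its median was 1.19 for the 46 genes tested and 0.169 for all 13231 genes tested. All 46 were above the median of all genes, and 41 were above their 95th percentile, 0.689. The 5 below that percentile were Espl1 (0.231), Incenp (0.336), Smc4 (0.365), Racgap1 (0.524) and Cenpa (0.539). Ccnb1 (1.52), Bub1 (1.50) and Melk (1.48) spread furthest. The standard error of a log2 change between groups of 3 libraries had a median of 0.80 over the genes and 0.135 over all genes tested, so a larger difference between groups was needed to pass the test than for most genes.

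**Figure D3:**
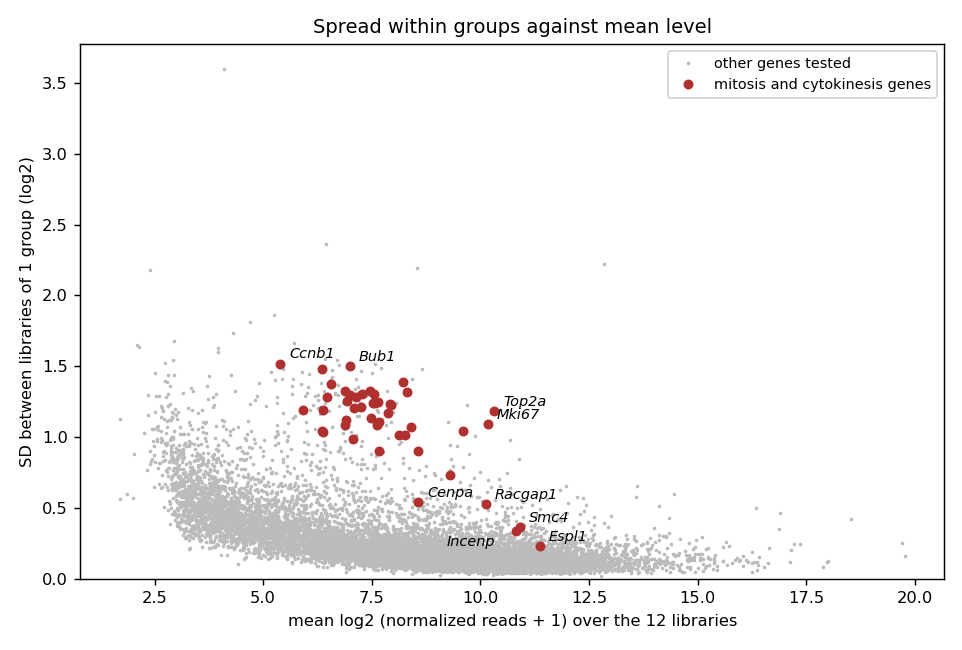
SD of log2(normalized reads + 1) between libraries of 1 group (vertical) against the mean over the 12 libraries (horizontal) for all 13231 genes tested, with the mitosis and cytokinesis genes in red. Most red points lie between 0.9 and 1.52, above the bulk of genes at the same level, and the 5 named at the lower right lie within it or near its edge.

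Samhd1 Sting dKO was set against Samhd1 KO to ask what the Sting knockout changes on the background of the Samhd1 knockout. All 46 genes had a lower mean log2 level in Samhd1 Sting dKO, with a median log2 change of -2.25 (all genes tested, -0.0019), and none passed the test. Limma called 0 of 46 (2.89% of all genes tested were called lower), with adjusted p from 0.0583 for Cenpe to 0.405 for Espl1. At an unadjusted p under 0.05, 43 of the 46 were lower (11.6% of all genes tested). For 34 of the 46 the 3 Samhd1 Sting dKO libraries lay below all 3 Samhd1 KO libraries (12.9% of all genes tested). The genes without such separation met mainly at Samhd1 KO replicate 1, the lowest of its group. The choice of tool changed the call: edgeR's quasi-likelihood test also called 0 (2.8% of all genes), whereas DESeq2 called 22 lower (5%). Leaving out 1 library moved the limma count to 10 without Samhd1 KO replicate 1, 7 without Samhd1 Cardif dKO replicate 1, 3 without Samhd1 Cardif dKO replicate 2 and 1 without WT replicate 2 or 3, and left it at 0 without each of the others. The count at an unadjusted p under 0.05 was 18 without Samhd1 KO replicate 3, 25 without Samhd1 KO replicate 2, 22 without Samhd1 Sting dKO replicate 3 and 16 by limma-voom. No share of all genes is given for limma-voom or with a library left out, here or below. Whether such shifts were particular to these genes was not tested.

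The 5 steadiest genes had narrower intervals in the same comparison. For Espl1 the log2 change was -0.25 (95% interval -0.60 to 0.11), for Incenp -0.50 (-1.01 to -0.0027), for Cenpa -0.64 (-1.44 to 0.16), for Smc4 -0.80 (-1.35 to -0.26) and for Racgap1 -1.09 (-1.86 to -0.32). The variable genes had large estimates with wide intervals, such as Ccnb2 at -2.65 (-4.55 to -0.75), Cenpf at -2.90 (-4.85 to -0.96) and Tpx2 at -2.73 (-4.54 to -0.93). No limma adjusted p was under 0.05 among these genes.

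Against Samhd1 Cardif dKO, the knockout of the RNA-sensing adaptor instead, the picture was alike, with the same Samhd1 Sting dKO libraries used again. All 46 genes had a lower mean log2 level in Samhd1 Sting dKO (median log2 change -2.46, all genes 0.000865), and 0 were called by limma (0.0907% of all genes were called lower) or edgeR (0.0907%). The lowest adjusted p was 0.12 for Spc25. At an unadjusted p under 0.05, 44 were lower (7.97% of all genes), and 42 did not overlap between the groups (9.91%). DESeq2 called 23 lower (1.94%). Without Samhd1 Cardif dKO replicate 1 the unadjusted count was 27. Mki67 had a log2 change of -2.48 (SE 0.73, limma adjusted p = 0.153) and Melk of -3.46 (SE 1.00, limma adjusted p = 0.15). The authors' deposited table, which compares these same groups, gave a ratio under 1 for all 47 genes and a median log2 ratio of -2.69. By the authors' deposited table, a total of 42 genes had a p-value under 0.05 before adjustment, and the lowest adjusted p-value was 0.259. No share or median over all genes is given for the authors' values, so this count cannot be set against a background.

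The Samhd1 knockout alone was read from Samhd1 KO and WT. All 46 genes had a higher mean log2 level in Samhd1 KO, with a median log2 change of 1.31 (all genes 0.0044), and 0 were called by limma (2.71% of all genes were called higher) or edgeR (2.68%). At an unadjusted p under 0.05, 1 of the 46 was higher (10.2% of all genes): Incenp, with a log2 change of 0.69 (SE 0.23, limma adjusted p = 0.118). DESeq2 called 1 (4.94% of all genes called higher). The groups overlapped for all 46 genes, 0 being separate against 13.8% of all genes, since WT replicate 2 was above Samhd1 KO replicate 1. The median was 0.57 without WT replicate 3 and 1.95 without Samhd1 KO replicate 1. The unadjusted count moved with single libraries too, at 35 without Samhd1 KO replicate 1 and 33 without WT replicate 2, with no share of all genes given for either.

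Samhd1 Cardif dKO and Samhd1 KO could not be distinguished at this spread. The median log2 change was 0.15 (all genes 0.0016), 41 genes had a positive and 5 a negative sign, and 0 were called (0% of all genes were called higher by limma and 0.144% lower) or had an unadjusted p under 0.05 (3.39% and 5.59%). By DESeq2 0 were called as well (0.128% and 1.22%), and 0 did not overlap (5.27% and 7.34%). The interval for Mki67 reached from -1.50 to 1.68, which does not show that the levels were alike. Without Samhd1 Cardif dKO replicate 1 the median was -0.45, and without Samhd1 KO replicate 1 it was -0.50.

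In Samhd1 Cardif dKO against WT all 46 genes had a higher mean log2 level (median log2 change 1.43, all genes 0.0059), and 0 were called by limma (0.348% of all genes were called higher) or edgeR (0.355%). DESeq2 called 1 (1.58%). At an unadjusted p under 0.05, 2 were higher (7.21%): Incenp (log2 change 0.77, SE 0.23, limma adjusted p = 0.15) and Aurkb (1.60, SE 0.68, limma adjusted p = 0.307). For 1 gene the groups did not overlap (9.85%). Without Samhd1 Cardif dKO replicate 2 the unadjusted count was 37, without WT replicate 2 it was 34 and without Samhd1 KO replicate 1 it was 12. In Samhd1 Sting dKO against WT 45 of 46 had a lower mean log2 level (median -0.97, all genes -0.0046), the exception being Incenp at 0.19. There 0 were called by limma (2.93% of all genes were called lower), edgeR (2.9%) or DESeq2 (4.61%), and Racgap1 alone was under an unadjusted p of 0.05 (10.3%) and alone did not overlap (13.9%). Without WT replicate 3 the unadjusted count was 23. The median in Samhd1 Sting dKO against WT depended on 2 WT libraries, at -0.33 without WT replicate 2 and -1.71 without WT replicate 3. A test for any difference among the 4 groups called 0 of 46 by limma (7.1% of all genes called), with 40 under an unadjusted p of 0.05 (25.5% of all genes) and a lowest adjusted p of 0.0789 for Spc25.

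**Figure D4:**
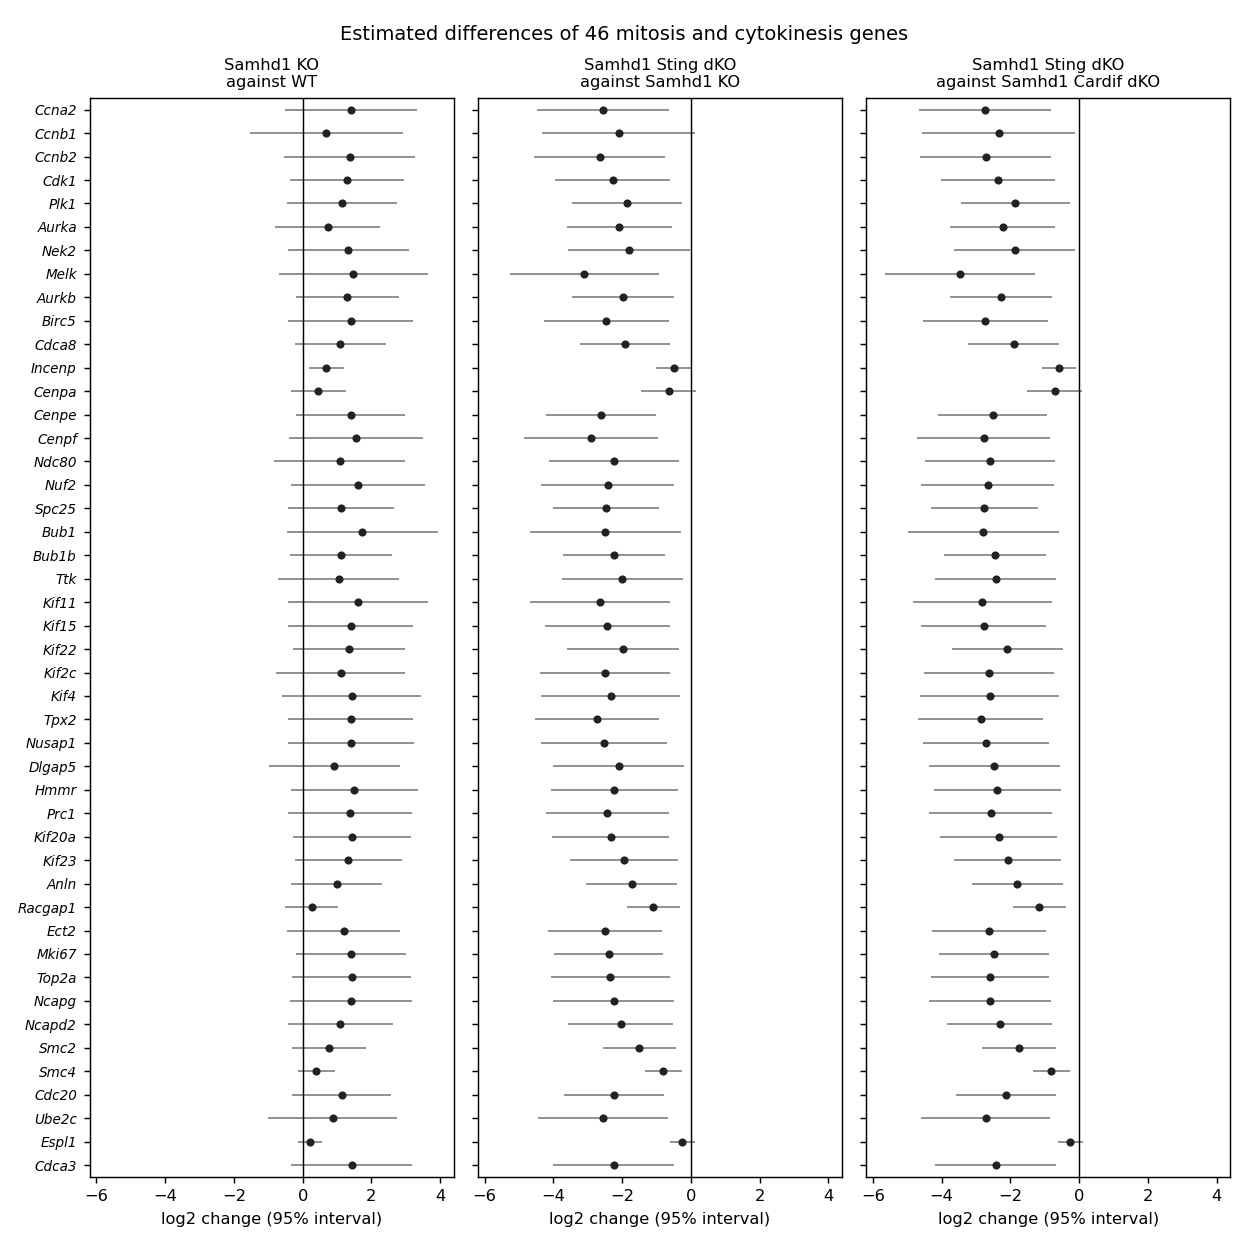
Log2 change (points) with its 95% interval (bars) for each of the 46 genes tested in 3 comparisons, from the limma fit across all genes. In both comparisons with Samhd1 Sting dKO most intervals lie below 0, with medians of -2.25 and -2.46, in Samhd1 KO against WT nearly all cross 0, and Espl1, Incenp and Smc4 have the narrowest intervals.

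Genes of neighbouring steps were read from lists chosen with earlier results of these data known. Of 26 other spindle and cytokinesis genes tested, 26 had a lower mean log2 level in Samhd1 Sting dKO than in Samhd1 KO (median -2.14) and 2 were called lower (2.89% of all genes tested): Sass6, which builds the centriole cartwheel, and Ckap5, a microtubule polymerase. Sass6 stood at 310, 324 and 311 normalized reads in WT, at 632, 557 and 504 in Samhd1 KO, at 509, 439 and 458 in Samhd1 Cardif dKO and at 297, 271 and 283 in Samhd1 Sting dKO. It was close within every group, and all WT and Samhd1 Sting dKO libraries were below all others. Sass6 was higher in Samhd1 KO than in WT (log2 change 0.84, SE 0.10, limma adjusted p = 0.00259) and lower in Samhd1 Sting dKO than in Samhd1 KO (-0.99, SE 0.10, limma adjusted p = 0.00042) or Samhd1 Cardif dKO (-0.72, limma adjusted p = 0.0236). It was also called higher in Samhd1 Cardif dKO than in WT (0.57, limma adjusted p = 0.0223). Ckap5 stood at 1409 to 1583 in Samhd1 KO and 1011 to 1147 in Samhd1 Sting dKO (log2 change -0.47, SE 0.12, limma adjusted p = 0.0393).

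Of 30 other kinetochore and checkpoint genes tested, 27 had a lower mean log2 level in Samhd1 Sting dKO than in Samhd1 KO (median -1.39), 18 at an unadjusted p under 0.05 (11.6% of all genes tested), and 0 were called in any comparison. Hjurp, the chaperone of CENP-A and the most abundant of them, had a log2 change of -0.53 (SE 0.24, limma adjusted p = 0.222). The 17 other condensin and cohesin genes had a median of -0.25 and the 15 subunits and regulators of the anaphase-promoting complex a median of -0.07, with 0 called in any comparison in either list. These complexes also work outside mitosis, and Anapc1, the largest subunit of the complex, stood between 2837 and 3333 in every library. Of 10 phosphatases and kinases of mitotic entry, 0 were called against Samhd1 KO (median -1.92) and 1 was lower in Samhd1 Sting dKO than in WT (2.93% of all genes tested), Wee1, the kinase that restrains CDK1, at 124, 270 and 64.5 in WT and 37.4, 24.7 and 33.4 in Samhd1 Sting dKO (log2 change -2.01, SE 0.55, limma adjusted p = 0.0491). Of 21 transcription factors of the G2 and M programme 0 were called in Samhd1 Sting dKO against Samhd1 KO (median -0.25). E2f3 was called higher in Samhd1 Sting dKO than in WT (3.57% of all genes tested), with a log2 change of 0.56 (SE 0.10, limma adjusted p = 0.00735). Foxm1 and Mybl2, named here after their values were seen, had the same order of high and low libraries within most groups. Foxm1, an activator of G2 and M genes, stood at 181, 463 and 71.1 in WT, at 166, 754 and 723 in Samhd1 KO, at 1321, 221 and 486 in Samhd1 Cardif dKO and at 131, 124 and 53.7 in Samhd1 Sting dKO.

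DNA replication genes, which act in S phase, varied with the mitosis genes in part. Of 45 tested, 45 had a lower mean log2 level in Samhd1 Sting dKO than in Samhd1 KO (median -0.98), 22 at an unadjusted p under 0.05 (11.6% of all genes tested), and 0 were called in any comparison. Their mean log2 level was 7.91, 9.05 and 7.28 in the WT replicates, 7.87, 9.49 and 8.71 in those of Samhd1 KO, 10.07, 8.73 and 8.58 in those of Samhd1 Cardif dKO and 7.96, 7.69 and 6.98 in those of Samhd1 Sting dKO. The highest library was again Samhd1 Cardif dKO replicate 1 and the lowest Samhd1 Sting dKO replicate 3. The balance of both lists differed between libraries of 1 genotype. The mean of the mitosis genes minus that of the replication genes was -0.31 in Samhd1 KO replicate 2 and 0.62 in replicate 3, and it was -1.09 in Samhd1 Cardif dKO replicate 2 and 0.13 in replicate 3. In Samhd1 Sting dKO it was -0.90, -1.04 and -1.21.

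The differences of single genes between libraries of 1 genotype were then set side by side. In each of Samhd1 KO, Samhd1 Cardif dKO and WT 1 pair of libraries was picked, by no set rule. Other pairs, and those of Samhd1 Sting dKO, were not compared. Between Samhd1 KO replicates 3 and 2, 27 of the 46 genes were higher in replicate 3 and 19 lower. The largest differences on the log2 scale were for Cenpf (0.91), Cdc20 (0.80), Cenpa (0.75), Kif2c (0.68) and Nek2 (0.62), and at the other end stood Ndc80 (-0.57), Smc2 (-0.34) and Ncapg (-0.30). Among the 10 genes highest in this difference were also Ube2c, Hmmr, Plk1, Ccnb1 and Ccnb2. In Samhd1 Cardif dKO, replicate 3 exceeded replicate 2 by a median log2 difference of 1.52 for those 10 genes, against 0.91 for the 10 at the other end. Of these, 9 of 10 and 2 of 10 were above the median of all 46, 1.00. In the WT pair the medians stood in the other order. There replicate 2 exceeded replicate 3 by a median of 2.49 for the first 10 genes and 3.07 for the other 10, with 2.73 for all 46. Across the 46 genes the Samhd1 KO differences had a correlation of r = 0.62 with those of Samhd1 Cardif dKO and of -0.20 with those of WT, given as a description of 6 libraries, in which genes are not independent.

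The B cell markers, a list for cells that share the peritoneal cavity, were higher where the mitosis genes were lower in the comparisons with Samhd1 Sting dKO. Their mean log2 level over 11 genes was 7.21, 6.59 and 6.89 in the WT replicates, 6.30, 6.01 and 5.46 in those of Samhd1 KO, 5.87, 6.95 and 6.49 in those of Samhd1 Cardif dKO and 8.79, 8.30 and 7.70 in those of Samhd1 Sting dKO. Samhd1 Sting dKO was above all other libraries. Of the 11 markers, 10 were called higher than in Samhd1 KO (2.77% of all genes tested), 5 higher than in WT (3.57%) and 3 higher than in Samhd1 Cardif dKO (0.189%), with a summed level of 4556 to 8279 normalized reads against 1771 to 2442 in Samhd1 KO. Within Samhd1 Sting dKO replicate 1 was highest and replicate 3 lowest in both the B cell and the mitosis list, and within Samhd1 KO replicate 3 was lowest in the B cell list and highest in the mitosis list. In Samhd1 Cardif dKO replicate 1 was lowest in the B cell list and highest in the mitosis list. In Samhd1 KO against WT all 11 markers had a lower mean log2 level (median -1.02), 0 were called lower (1.62% of all genes tested) and 7 did not overlap (12.9%), while the mitosis genes had a higher one. With the mean B cell level of each library as a covariate, the median log2 change of the mitosis genes in Samhd1 Sting dKO against Samhd1 KO was 0.12 in place of -2.25, with 1 gene at an unadjusted p under 0.05. With the same covariate it was 0.29 in place of 1.31 in Samhd1 KO against WT, and 0.94 in place of 1.43 for Samhd1 Cardif dKO. Samhd1 Sting dKO does not overlap with any other group in this level, nor Samhd1 KO with WT, so that these groups and the B cell level cannot be told apart in these libraries.

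Among markers of further cell types, those found for mast cells, T and NK cells, neutrophils and erythroid cells were low in most libraries. The eosinophil genes of the list, Epx, Prg2 and Ear6, were not among the deposited genes, so eosinophils were not assessed. For neutrophils only S100a8, Mmp8 and Elane were found. Mast cell markers summed to 7.23 to 9.89 normalized reads in Samhd1 KO and 35.8 to 521 in Samhd1 Sting dKO. Of 5 tested, 3 were called lower in Samhd1 KO than in WT libraries (1.62% of all genes tested). In Samhd1 Sting dKO 4 of 5 were called higher than in Samhd1 KO (2.77%). T and NK cell markers summed to 5.66 to 45.0 normalized reads, with Cd3e at 0 to 5.19 in every library. Neutrophil markers summed to 40.1 to 87.8, and of the erythroid genes Hbb-b1 was at most 2.86 outside Samhd1 Sting dKO replicate 3, where it was at 63.2. The plasma cell genes found, without Jchain, summed to 4639 to 8155 normalized reads. Their mean log2 level was only 5.72 to 6.98, so the genes shared that sum unevenly, and it does not measure plasma cells. Of 4 plasma cell genes Mzb1 was higher in Samhd1 Sting dKO than in Samhd1 KO (log2 change 2.60), and Xbp1 was lower in each mutant group than in WT. Dendritic cell, monocyte and small peritoneal macrophage genes summed to 6184 to 11858 normalized reads. Of 9 tested, Cd209a was called lower (1.62% of all genes tested) and Zbtb46 and Fcgr4 higher (2.71%) in Samhd1 KO than in WT. Fcgr4 was called lower in Samhd1 Sting dKO than in Samhd1 KO (log2 change -1.60, 2.89% of all genes tested). Of the 14 large peritoneal macrophage markers Cd5l was called lower in the latter comparison (log2 change -0.64, 2.89% of all genes tested). The part of these cells in the levels of the mitosis genes was not tested.

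**Figure D5:**
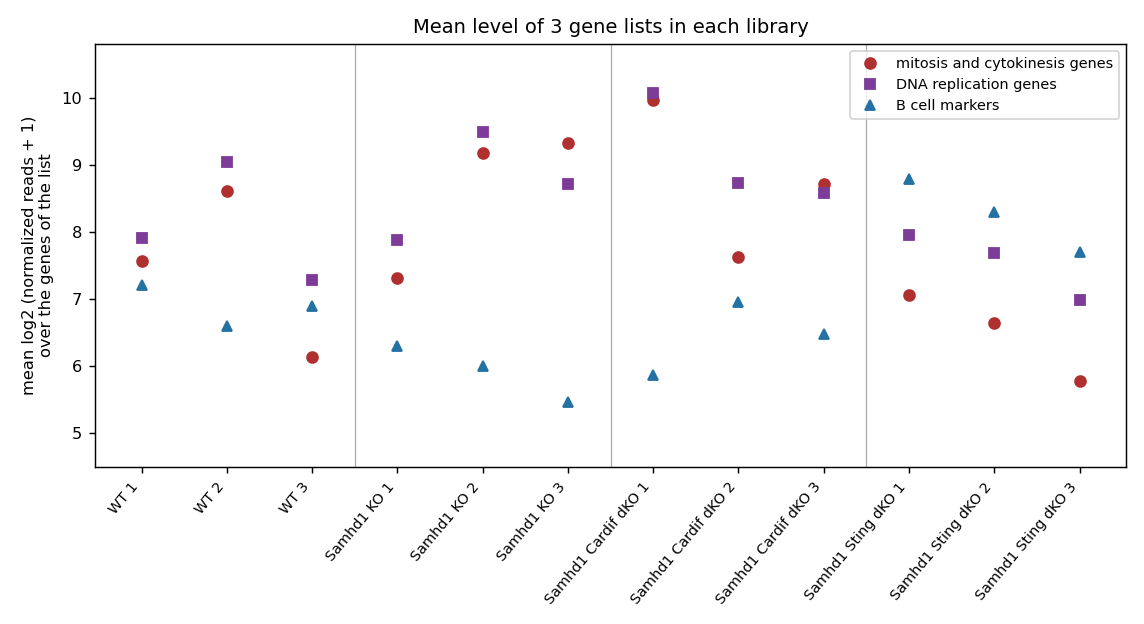
Mean log2(normalized reads + 1) of the mitosis and cytokinesis genes (46), the DNA replication genes (45) and the B cell markers (11) in each library. The mitosis mean runs from 5.77 in Samhd1 Sting dKO replicate 3 to 9.96 in Samhd1 Cardif dKO replicate 1, and the B cell mean is highest in the 3 Samhd1 Sting dKO libraries.

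Regulators of earlier steps were read from a pair of lists. Of 15 G1 cyclins, their kinases and inhibitors, the median log2 change in Samhd1 Sting dKO against Samhd1 KO was -0.15, and 1 was called higher (2.77% of all genes tested), Cdkn2b, a G1 kinase inhibitor (log2 change 0.87, SE 0.22, limma adjusted p = 0.0423). Cdkn2a and Cdkn2b were called lower in Samhd1 KO against WT (as were 1.62% of all genes tested, log2 changes -1.54 and -0.98, limma adjusted p = 0.00506 and 0.03). Cdkn2a was also called lower in Samhd1 Sting dKO than in WT (-1.49, limma adjusted p = 0.00362, 2.93% of all genes tested). Cdkn2a stood at 351 to 402 in WT, 108 to 146 in Samhd1 KO, 189 to 346 in Samhd1 Cardif dKO and 100.2 to 151 in Samhd1 Sting dKO. Whether its level was related to that of the mitosis genes was not tested. Of 13 regulators of macrophage self-renewal, 2 were called higher in Samhd1 KO than in WT (2.71% of all genes tested) and 4 in Samhd1 Sting dKO than in WT (3.57%). Klf4 (log2 change 0.95 in Samhd1 KO and 1.60 in Samhd1 Sting dKO against WT, limma adjusted p = 0.0401 and 0.00336) and Bhlhe40 (0.77 and 0.68, limma adjusted p = 0.00643 and 0.00773) were higher in both. Myc was higher in Samhd1 Sting dKO than in WT (log2 change 0.67, SE 0.18, limma adjusted p = 0.0496) and higher than in Samhd1 KO (0.71, SE 0.18, limma adjusted p = 0.0429). Il4ra was lower in Samhd1 Cardif dKO than in WT (-0.82, SE 0.11, limma adjusted p = 0.00675; 0.71% of all genes tested were called lower), and Csf1r, the receptor for the macrophage growth factor, stood between 38280 and 48318 in every library.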

How the data were processed

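Strand-specific libraries of poly-dT-enriched RNA were made per the labels' protocols, and the submitters' processing notes name the mm9 build, bedtools 2.16.2 and DESeq 1.6.1. The annotation was Ensembl 61, per the file headers. No aligner is named in the labels or headers. In the deposited table the signal of a gene is its read number over a size factor of the library, set by the authors. All values of a library were whole multiples of the smallest (100% at a tolerance of 1e-04), so reads were recovered by division. For Samhd1 Cardif dKO replicate 2 that step was 1.003, so its scaled values lay close to its plain reads without being equal to them. The deposited ratio columns are the authors' fold of Samhd1 Sting dKO over Samhd1 Cardif dKO, the deposited log2 columns its logarithm, and the deposited p-value columns the authors' test. Depth was 18884021 to 32204657 reads.

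Genes that reached 10 normalized reads in 3 or more libraries (13231, among them 46 of the 47 members) were fitted with limma-trend 3.58.1 (R 4.3.3) on log2(normalized reads + 1), which understates changes of low genes, as 1 model of 4 group means over 12 libraries. The 6 contrasts and an F test were adjusted by Benjamini-Hochberg over all genes at a threshold of 0.05. Adjusted p-values are from limma unless another tool is named. The script was tested on simulated data. Alternatives were edgeR 4.0.16 and DESeq2 1.42.0 on the recovered reads, limma-voom, other filters, pseudocounts and scaling, covariates, a replicate block and leaving out each library.

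The members, roles, marker lists and tests were chosen with earlier results of these data known. Values in every library are given for Mki67 and the 2 most abundant members of each role. Of 268 list genes in 17 lists, 251 were in the table, 7 of them by alias or identifier. A gene outside the rule is named where a count was small or where so stated. Promoters are RefSeq windows on GRCm38.p6, used for sequence only.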

Additional observations from a re-analysis of the deposited data

How the results depend on the processing

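The limits are those of 3 libraries per group with a wide spread: the mean log2 level of the mitosis and cytokinesis genes had an SD of 1.07 between libraries of 1 group. The number called was 0 in each comparison by limma and stayed 0 under TMM scaling, both edgeR settings, limma-voom, both other filters and pseudocounts and age as a covariate. DESeq2 called 1 in Samhd1 KO against WT, 22 in Samhd1 Sting dKO against Samhd1 KO, 1 in Samhd1 Cardif dKO against WT and 23 in Samhd1 Sting dKO against Samhd1 Cardif dKO. For any difference among the 4 groups DESeq2 used a likelihood ratio test in place of the F test. That test called 11, and no share of all genes is given for it. With only the groups compared, 6 were called in Samhd1 Sting dKO against Samhd1 KO, and with sex as a covariate 7 there and 1 in Samhd1 KO against WT. Only Samhd1 Cardif dKO replicate 1 was male, so the sex covariate in effect leaves out that library. It gave the same counts as doing so and cannot separate sex from that library. Leaving out 1 library gave 0 to 10 calls in Samhd1 Sting dKO against Samhd1 KO, 0 to 1 in Samhd1 KO against WT and 0 to 3 in the F test. No share of all genes is given for the subset, covariate and left-out-library settings. The median log2 change left its own direction with the B cell marker level as a covariate, at 0.12 in Samhd1 Sting dKO against Samhd1 KO and 0.35 against WT, and was -0.59 against Samhd1 Cardif dKO. Leaving out 1 library gave medians of -2.97 to -1.88, 0.57 to 1.95, -3.09 to -1.82, 0.71 to 2.04, -1.71 to -0.33 and -0.50 to 0.78 in Samhd1 Sting dKO against Samhd1 KO, Samhd1 KO against WT, Samhd1 Sting dKO against Samhd1 Cardif dKO, Samhd1 Cardif dKO against WT, Samhd1 Sting dKO against WT and Samhd1 Cardif dKO against Samhd1 KO. With the B cell covariate 10 of the 21 genes given in every library reversed in Samhd1 Sting dKO against Samhd1 KO: Mki67 0.26, Plk1 1.23, Incenp 0.62, Aurkb 0.18, Cenpa 1.38, Bub1b 0.20, Nusap1 0.015, Anln 0.75, Smc4 0.66 and Espl1 0.17, and the cause was not tested.

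Replicate numbers did not pair the libraries: the correlation of deviations of same-numbered libraries ran from -0.427 to 0.369, with 7 of 18 pairs over 0.1, and 4 of 12 libraries correlated best with their own number. With the replicate block 0 genes were called in Samhd1 Sting dKO against Samhd1 KO, at a median of -2.25, and the block changed no other call.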
